A study of Apis mellifera with 12 samples.

Results

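The chemosensory proteins (CSPs) of the honeybee form a small family named CSP1 to CSP6, and their transcripts were followed here in embryos of both sexes. The members were the loci whose gene name is exactly one of these 6 names in capitals. Of 17621 loci per library, 5 carried such a name, each in a single row. No row carried the name CSP5, which was not analysed here. Poly(A) RNA came from whole wild-type embryos of *Apis mellifera carnica*. Groups were diploid females and haploid males aged 10–15 h, 25–40 h and 55–70 h from laying, each with 2 libraries, 12 in all. Pools held 100, 60 and 30 embryos at the successive ages and came from 3 mothers, and all eggs were incubated at 34 °C. For its honeybees the paper describes mated queens as mothers of females and unmated queens given carbon dioxide as mothers of males, so if this holds here the effect of sex and that of the mother cannot be told apart. The labels do not say that both pools of a group were collected separately, and the spread that enters the p-values may therefore be technical.

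CSPs are small soluble proteins of arthropods with conserved cysteines that fold into a pocket for hydrophobic ligands. They were named for their presence in the fluid of chemosensory hairs on antennae and legs, but members also occur in tissues with no sensory role. In the honeybee CSP3, also called ASP3c, is known from antennae, where it binds components of brood pheromone in vitro, and CSP1 is known as an antennal protein.

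The expression unit was FPKM, the fragments of a locus relative to its length and to all mapped fragments, which the authors deposited with a lower and an upper confidence bound. The depth in reads is unknown. Levels are set side by side between members on this length-corrected scale, with the limit that the lengths used are not part of the files and that some values lie outside their own bounds. In bulk embryos fewer cells with a transcript and less transcript per cell cannot be told apart. All 22 loci of an embryo patterning list passed the filter used for testing, whereas 12 loci of hive or adult worker RNA summed to 4.78 to 48.5 FPKM per library. Of these 12, 5 passed the filter. At the first age step 2 of them rose and 2 fell, against 47.6% and 23.6% of all loci tested. At the second 3 rose and 0 fell, against 36.4% and 19%. A *Melt* locus among those that rose listed at most 0.917 FPKM in any library before 55–70 h. It passed the filter only through its late values, so these counts are partly set by the filter. The yolk protein gene *Vg* was at or below 0.198 FPKM, whereas another *Melt* locus reached 27.9 FPKM and a *Mrjp1* locus 10.98 FPKM in the second male library of 55–70 h. The part of such RNA in the CSP values was not tested. For CSP1, CSP3 and CSP4 the FPKM lay above their own upper bound in 4, 8 and 6 of the 12 libraries, whereas those of CSP2 and CSP6 lay inside the bounds in all 12.

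CSP2, CSP3 and CSP6 rose from at most 8.72 FPKM at 10–15 h to between 373 and 3555 FPKM at 55–70 h. CSP4 rose to 3.31 to 9.51 FPKM, and CSP1 lay between 0 and 1.89 FPKM throughout. Counting a member as embryonic in a group when both libraries listed at least 1 FPKM, all 5 measured members were embryonic in at least one group, 4 of them at 10–15 h, 3 at 25–40 h and 4 at 55–70 h. CSP1 met this only in males at 10–15 h, where both values lay above their own upper bounds. There the midpoints of its bounds averaged 0.860 FPKM, below the 1 FPKM asked. The share of all loci that meet this rule, or the other rules below, was not counted. These counts therefore do not show whether the members stand out from other loci. With at least 5 FPKM asked of both libraries, 4 members remained, 1 at 10–15 h, 3 at 25–40 h and 4 at 55–70 h. CSP4 met this only in females at 55–70 h, where both values lay above their own upper bounds. The midpoints of its bounds in that group averaged 4.46 FPKM, below the 5 FPKM asked. The same 4 members, CSP2, CSP3, CSP4 and CSP6, had a lower bound above 1 FPKM in both libraries of a group.

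**Figure D1:**
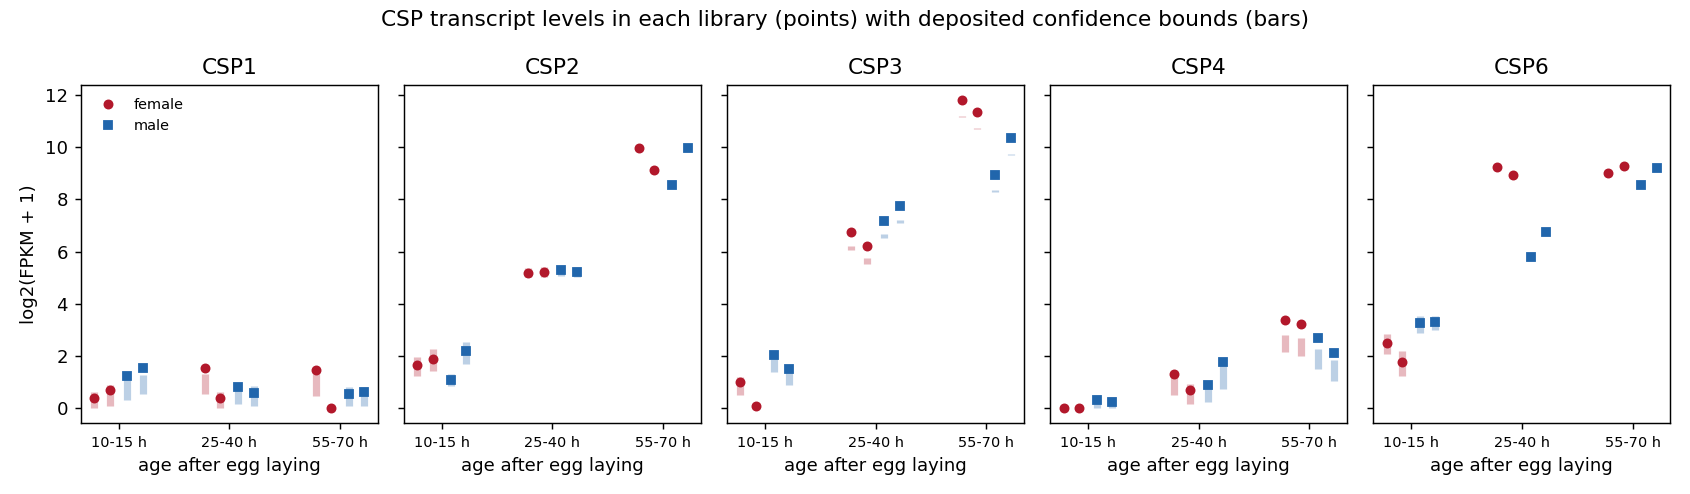
Level of each CSP in every library as log2(FPKM + 1) on the vertical axis, by age on the horizontal axis, with females as red circles and males as blue squares. Each point is 1 library and the bar behind it spans the confidence bounds, which the CSP3 points exceed at the later ages. CSP6 stands apart between the sexes at 25–40 h, with females at 598 and 490 FPKM and males at 54.2 and 106 FPKM.

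The changes with age were tested with limma on log2(FPKM + 1), with p-values adjusted by the Benjamini–Hochberg procedure. Tested were the 10105 loci that averaged 1 FPKM or more and had a valid status throughout. The filter left out CSP1, whose mean was 0.865 FPKM, and kept CSP4 only through its late values, since its mean without the 55–70 h libraries was 0.725 FPKM. The number of members that rose is thus partly set by the filter. CSP2, CSP3 and CSP6 averaged at least 1 FPKM at every age, from 1.503 FPKM for CSP3 at 10–15 h. Averaged over the sexes, these 3 and CSP4 rose from 10–15 h to 25–40 h, where 47.6% of all loci tested rose and 23.6% fell. They rose again from 25–40 h to 55–70 h, where 36.4% of all loci rose and 19% fell. The median over all loci was 0.50 at the first step and 0.23 at the second on the log2 scale. Scaling the libraries by median ratios moved these medians to 0.09 and -0.01, and the 4 members kept their calls under that scaling at both steps.

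CSP6 led the family in female embryos at 25–40 h. At 10–15 h it stood at 4.71 and 2.38 FPKM in females and at 8.47 and 8.72 FPKM in males. At 25–40 h the female libraries listed 598 and 490 FPKM, with bounds of 584 to 624 and 472 to 514 FPKM, and the male libraries 54.2 and 106 FPKM, with bounds of 48.7 to 59.7 and 97.7 to 115 FPKM. Both females were thus above both males, and no bounds of one sex met those of the other. By 55–70 h the levels were 510 and 620 FPKM in females and 377 and 588 FPKM in males, and the sexes overlapped. The female libraries of 25–40 h and 55–70 h overlapped as well.

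Tested between the sexes, CSP6 was higher in females at 25–40 h by 2.82 (SE 0.36) on the log2(FPKM + 1) scale (limma adjusted p = 7.96e-04), with a 95% interval of 2.02 to 3.61. It was the only member of the 4 called at that age, where 14.6% of all loci were called and 7.96% were higher in females. Of the 10105 loci, 28 had a larger difference in that direction. At 10–15 h the difference was -1.13 (SE 0.36, adjusted p = 0.0737) and at 55–70 h 0.26 (SE 0.36, adjusted p = 0.746), neither past the threshold. Averaged over the sexes, CSP6 rose by 4.98 (SE 0.25, adjusted p = 4.77e-08) at the first step and by 1.33 (SE 0.25, adjusted p = 0.00116) at the second. Within the sexes the second step was 0.054 (SE 0.36) in females and 2.62 (SE 0.36) in males, so the averaged rise came from the male libraries.

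The sex difference of CSP6 changed with age. An F test of the interaction of sex and age gave F = 31.1 (limma adjusted p = 0.00485), with the female minus male difference moving by 3.94 between the first and the middle age and by -2.56 between the middle and the last. The call at 25–40 h held when any 1 of the 12 libraries was omitted, at 2.34 to 3.30 with adjusted p from 0.00148 to 0.0101, and was lost when only the 4 libraries of that age were fitted (2.82, adjusted p = 0.0649). On a scale over all loci on which the mean 10–15 h library is 0 and the mean 55–70 h library is 1, the female libraries of 25–40 h stood at 0.672 and 0.642 and the male libraries at 0.466 and 0.537. The part of this offset in the CSP6 difference was not tested.

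**Figure D2:**
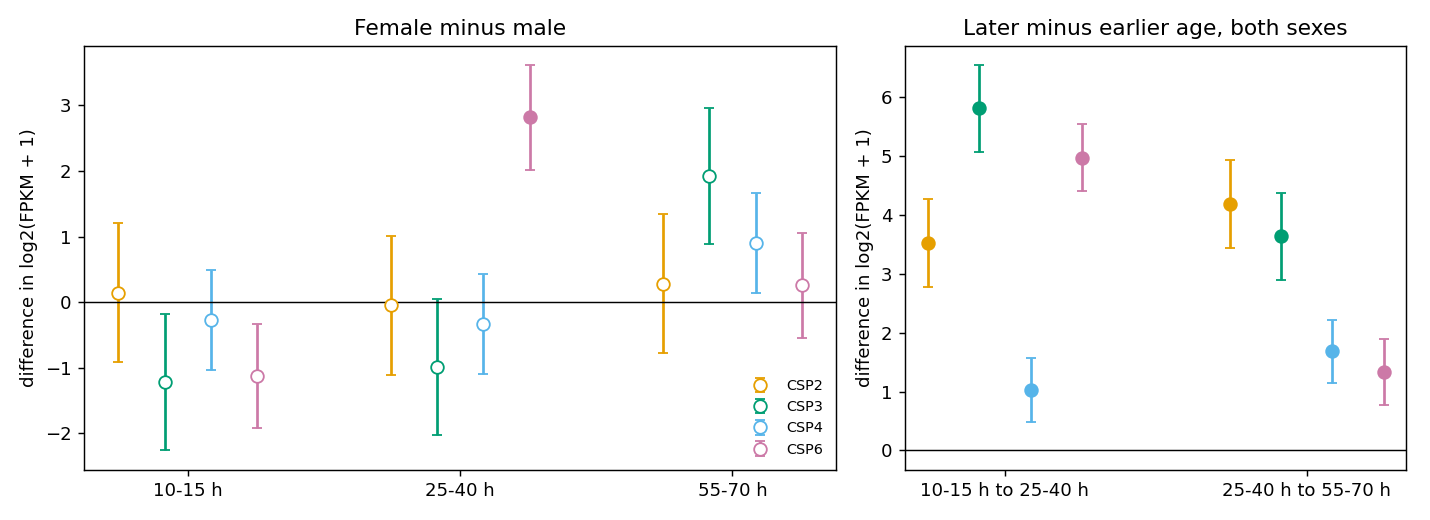
Differences of the 4 tested CSPs in log2(FPKM + 1), female minus male at each age on the left and later minus earlier age, averaged over the sexes, on the right. Points are limma estimates and bars 95% intervals, and filled points passed an adjusted p of 0.05. CSP6 at 25–40 h (2.82) is the one filled point among the sex differences, whereas all 8 age changes are filled.

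CSP3, the antennal binder of brood pheromone components, gave the highest single values of the family. It stood at 1.02 and 0.0556 FPKM in females and at 3.15 and 1.79 FPKM in males at 10–15 h. At 25–40 h females had 105 and 73.6 FPKM and males 144 and 214 FPKM. The oldest females had 3555 and 2593 FPKM and the oldest males 492 and 1294 FPKM. The male libraries were above both female libraries at the earlier ages and below both at 55–70 h, where CSP3 ranked 32 and 48 among all loci in females and 171 and 100 in males.

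None of these sex differences of CSP3 passed the test at a single age. They were -1.22 (SE 0.47, limma adjusted p = 0.128) at 10–15 h, -0.99 (SE 0.47, adjusted p = 0.200) at 25–40 h and 1.93 (SE 0.47, adjusted p = 0.0935) at 55–70 h, the last with 67 larger differences among all loci. Across ages they differed, with an interaction of F = 14.04 (adjusted p = 0.0237), and the female minus male difference moved by 0.24 at the first step and by 2.91 at the second. CSP3 and CSP6 were the 2 of 4 members with a called interaction, against 10% of all loci. The CSP3 call fell away with any of 5 libraries left out (adjusted p from 0.0527 to 0.0921): the second female and the first male library of 10–15 h, the first male library of 25–40 h, and the first female and first male library of 55–70 h. Without the second male library of 55–70 h the sex difference at that age was called at 2.62 (adjusted p = 0.0197).

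Averaged over the sexes, CSP3 rose by 5.81 (SE 0.33, limma adjusted p = 9.92e-08) and then by 3.64 (SE 0.33, adjusted p = 6.04e-06). At the first step 46 of the 10105 loci had a larger change. All 8 values of the later ages lay above their upper bound, at 1.40 to 1.53 times it. The midpoint of the bounds, an alternative chosen after seeing the data, gave means of 1989 FPKM in females and 580 FPKM in males at 55–70 h, and the sex difference was then called at 1.92 (adjusted p = 0.0466).

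No sex difference of CSP2 was called, and it rose with age. At 10–15 h it stood at 2.13 and 2.73 FPKM in females and at 1.11 and 3.52 FPKM in males. At 25–40 h all 4 libraries lay close together, at 35.5 and 36.2 FPKM in females and at 37.7 and 36.4 FPKM in males. The oldest females had 1000.0 and 559 FPKM and the oldest males 373 and 1011 FPKM. The sexes overlapped at the first and last ages, and at 25–40 h the males were just above the females.

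The age changes of CSP2, averaged over the sexes, were 3.53 (SE 0.34, limma adjusted p = 4.30e-06) and 4.18 (SE 0.34, adjusted p = 2.43e-06). At the second step 219 loci had a larger change. The averaged second step of CSP2 was above that of CSP3, but in females that of CSP3 was 5.09 (SE 0.47) and that of CSP2 4.35 (SE 0.48), and the difference between the members was not tested. Its sex differences were 0.15, -0.05 and 0.28 at the successive ages (adjusted p = 0.971, 0.974 and 0.792). The interval at 25–40 h ran from -1.10 to 1.01 on the log2 scale.

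CSP4 was the lowest of the tested members. It was listed at 0 in both female libraries of 10–15 h and at 0.233 and 0.188 FPKM in the males. At 25–40 h females had 1.49 and 0.614 FPKM and males 0.849 and 2.43 FPKM, overlapping each other. The oldest females had 9.51 and 8.28 FPKM and the oldest males 5.44 and 3.31 FPKM, with both females above both males. The 6 values above their upper bound include all 4 of 55–70 h, where the midpoint of the bounds gave means of 4.46 FPKM in females and 2.34 FPKM in males.

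The rise of CSP4 was called at both steps, at 1.03 (SE 0.24, limma adjusted p = 0.00297) and 1.68 (SE 0.24, adjusted p = 1.76e-04). Since the females start at 0, the first value depends on the pseudocount: it was 2.87 with a pseudocount of 0.1 and 0.31 with one of 5. Under quantile normalization the first step missed the threshold (0.51, adjusted p = 0.0539). The sex differences were -0.28, -0.33 and 0.91 at the successive ages (adjusted p = 0.742, 0.594 and 0.214). Of the interaction, F = 4.11 (adjusted p = 0.150) missed the threshold, and it passed under median-ratio scaling (adjusted p = 0.048) and quantile normalization (adjusted p = 0.0324).

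CSP1, the other antennal protein, differed widely within its female groups at the later ages. Females listed 0.303 and 0.631 FPKM at 10–15 h, 1.87 and 0.309 FPKM at 25–40 h, and 1.78 and 0 FPKM at 55–70 h. Males listed 1.32 and 1.89, 0.762 and 0.508, and 0.466 and 0.537 FPKM at the same ages. Only at 10–15 h did the sexes not overlap, with males higher. In a fit with no filter on low values, over 17218 loci, 0 of its 6 contrasts were called with limma and 0 had an unadjusted p under 0.05, and the difference at 10–15 h was -0.83 (SE 0.47, adjusted p = 0.454).

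At the other ages no sex difference of a tested member was called. At 10–15 h 0 of 4 were called, against 9.07% of all loci, and at 55–70 h 0 of 4, against 0.643%. Averaged over ages 0 of 4 were called, against 11.9% of all loci, with CSP6 nearest at 0.65 (SE 0.21, limma adjusted p = 0.0645). At an unadjusted p under 0.05 the counts were 2 of 4 at 10–15 h (CSP3 and CSP6), against 26.1% of all loci, 2 of 4 at 55–70 h (CSP3 and CSP4), against 18.7%, and 1 of 4 for the average (CSP6), against 32%.

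The summed level of the family was higher in each female group than in the one before. It was 8.16 and 5.79 FPKM at 10–15 h, 742 and 601 FPKM at 25–40 h, and 5076 and 3780 FPKM at 55–70 h. In males the sums were 14.3 and 16.1, 237 and 359, and 1247 and 2896 FPKM. The family took at most 0.698% of the FPKM of a library.

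By group means, the member that led this sum changed with age and differed between the sexes only at 25–40 h. CSP6 made up 80.6% and 81.6% of it in females at 25–40 h and 22.8% and 29.6% in males, where CSP3 led with 60.6% and 59.4%. Among the oldest embryos CSP3 led with 70.0% and 68.6% in females and with 39.4% and 44.7% in males. At 10–15 h the order in females was CSP6, CSP2, CSP3, CSP1 and CSP4, and the libraries of CSP6 and CSP2, and of CSP3 and CSP1, overlapped. In males of that age CSP6 led with 59.3% and 54.1%, and its libraries overlapped those of no other member. At 25–40 h CSP6, CSP3 and CSP2 followed each other in females without overlap, and in males CSP3, CSP6 and CSP2 did. Both CSP3 values of these males lay above their upper bounds. With midpoints of the bounds in their place, CSP3 at 94.8 to 140 FPKM and CSP6 at 54.2 to 106 FPKM overlapped. In the oldest embryos the CSP2 and CSP6 libraries overlapped in both sexes, and those of CSP3 and CSP2 overlapped in males only. By the midpoints of the bounds CSP2 was above CSP3 in these males, with means of 698 and 580 FPKM.

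**Figure D3:**
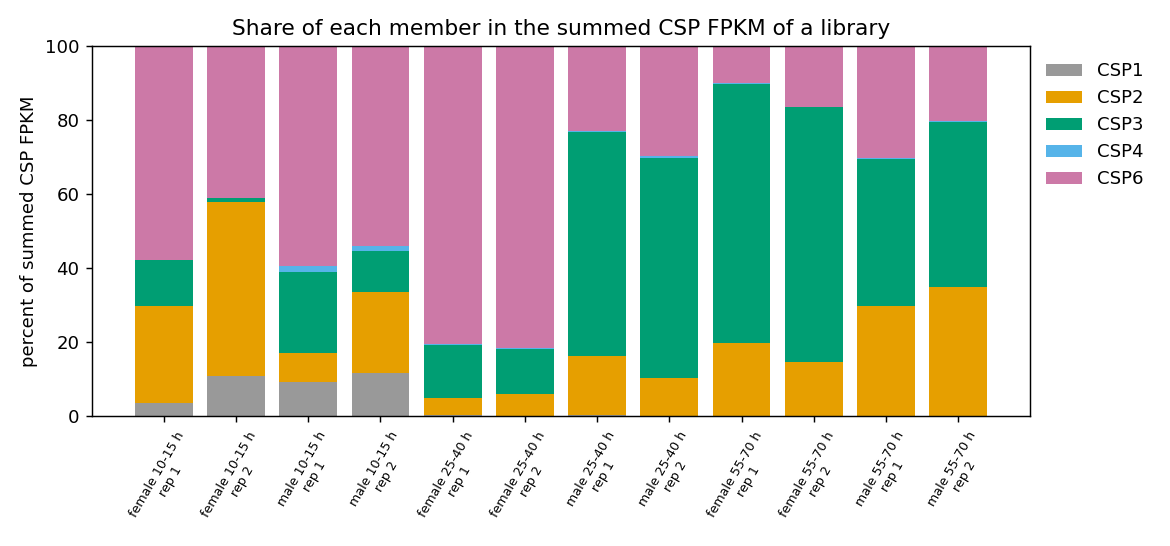
Share of each CSP in the summed CSP FPKM of each of the 12 libraries, in percent, with 1 stacked bar per library. CSP6 fills 80.6% and 81.6% of the female bars at 25–40 h, whereas CSP3 fills 60.6% and 59.4% of the male bars of that age and leads in all 4 bars of 55–70 h.

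The sources used here give no genome build for the loci. CSP3 and CSP4 lie on chromosome 5, at 2176719 to 2178151 and at 2185791 to 2187077, 7639 bases apart, with *LOC724561* between them. This neighbour rose as well, by 0.80 (limma adjusted p = 0.00114) and 1.34 (adjusted p = 5.22e-05), to 2.42 to 5.60 FPKM at 55–70 h. Before that age it listed at most 1.003 FPKM in any library. It passed the filter only through its late values, so these calls are partly set by the filter. CSP6 lies on chromosome 1 at 27117958 to 27119833, CSP2 on chromosome 2 at 14913414 to 14921732 and CSP1 on chromosome 8 at 6503709 to 6504171. Which of these bases are exonic was not read from the files, which give the locus only.

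For 3 members the locus overlaps another. CSP1 lies wholly inside a locus that joins *DLC-D*, *LOC409538* and *LOC412323* and had 62.3 to 330 FPKM, and CSP2 lies wholly inside that of *Pygo*. CSP6 shares 132 bases with *cdc2rk*. The counting is not stated to use strand, so reads of overlapping loci may not be told apart. *Pygo* rose by 0.88 (limma adjusted p = 0.0122) and then fell by 1.28 (adjusted p = 0.00201). The female minus male difference of *cdc2rk* was called at 10–15 h, at -1.07 (adjusted p = 0.0382) beside -1.13 for CSP6, and missed the threshold at 25–40 h, at -0.29 (adjusted p = 0.547) beside 2.82 for CSP6. The part of shared reads in the CSP values was not tested.

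At 55–70 h the male libraries differed from each other in CSP2 and CSP3. Replicate 2 exceeded replicate 1 by 1.44 for CSP2, 1.39 for CSP3 and 0.64 for CSP6 on the log2(FPKM + 1) scale, while CSP4 differed by -0.58. Cuticle and integument genes moved the same way in this pair, with a median of 1.45 over 38 tested loci, of which 33 were higher in replicate 2, whereas the median over all loci was -0.13. In the female pair of that age CSP2 and CSP3 differed by -0.84 and -0.46 and the cuticle median was 0.03. The sex difference of CSP3 at 55–70 h rests on these male libraries, and the part of their offset in it was not tested.

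**Figure D4:**
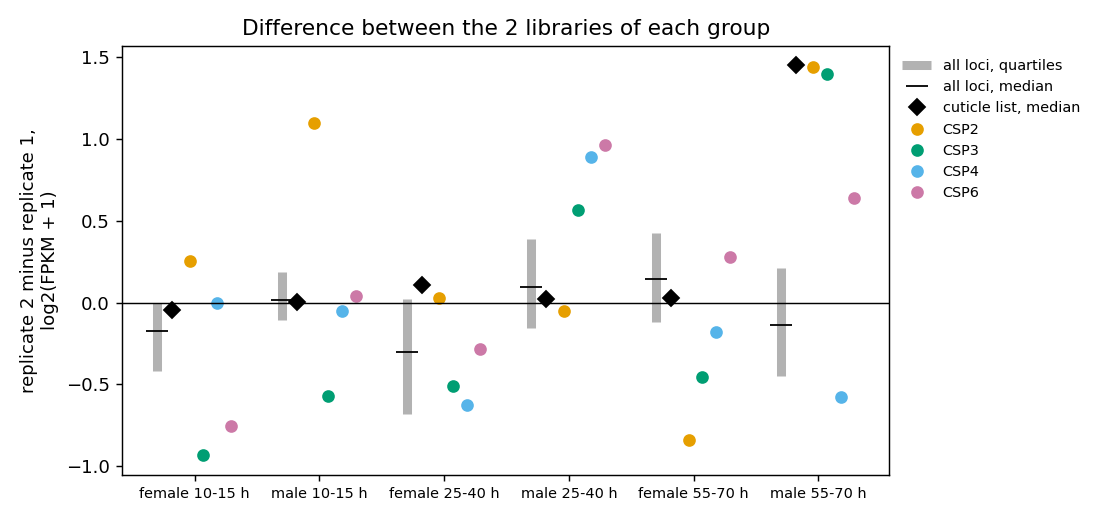
Difference between the libraries of each group, replicate 2 minus replicate 1 in log2(FPKM + 1), for 4 CSPs, the median of 38 cuticle and integument loci (diamonds), and all loci (bar for quartiles, line for median). In males at 55–70 h CSP2 (1.44), CSP3 (1.39) and the cuticle median (1.45) lie far above the all-loci median of -0.13.

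Cuticle and integument genes were followed as a further group. Of 48 matched loci, 6 of which join several genes, 38 passed the filter. At the first step 18 of the 38 rose and 3 fell, a share close to the 47.6% of all loci that rose, with a median of 0.79 against 0.50 over all loci. At the second step 30 rose and 0 fell, where 36.4% of all loci rose and 19% fell, with a median of 3.04 against 0.23. *Osi9*, *Osi7* and *Osi18*, of the Osiris family of cuticle-associated proteins, rose at the second step by 9.36, 8.83 and 7.62. Before 55–70 h they listed at most 0.385, 0.221 and 0.161 FPKM in any library, so they passed the filter only through their late values. The number of cuticle and integument loci that rose at this step is thus partly set by the filter. 

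The other chemosensory groups changed in both directions. Odorant-binding proteins, the other class of soluble carriers in sensory fluid, matched 17 loci, of which 5 passed the filter, and 1 of them rose and 1 fell at the first step and 4 rose and 1 fell at the second, against the same shares of all loci. Apart from *Obp13*, those that rose at the second step listed at most 0.316 FPKM in any library before 55–70 h. They passed the filter only through their late values, so this count is partly set by the filter. *Obp13* reached 306 to 411 FPKM at 55–70 h, after rises of 3.47 and 4.87. *Obp9* had the reverse course, from 417 to 531 FPKM at 10–15 h to 0.366 to 3.20 FPKM at 55–70 h, with falls at both steps (-3.69 and -4.09). Like CSP6 it differed between the sexes at 25–40 h, but with the females lower, at 8.04 and 9.12 FPKM against 185 and 103 FPKM in males (-3.87, limma adjusted p = 3.19e-04). *Obp13* was higher in females at that age, as CSP6 was (1.27, adjusted p = 0.0333), and *Obp15* was higher in females at 55–70 h (3.03, adjusted p = 0.00207). *Obp15* listed 6.75 and 10.1 FPKM in these females and at most 0.316 FPKM in every other library. It passed the filter only through this group, so its call is partly set by the filter. Of 13 chemoreceptor loci, the membrane proteins that detect odours and tastes, 6 passed the filter, and 3 to 7 of the 13 reached 1 FPKM in a library, with 7 in both male libraries of 55–70 h. Of the 6 tested, 3 rose and 1 fell at the first step, among them *Or160* with 2.15 and *Gr3* with -0.76, and 1 rose and 3 fell at the second, among them *Or119* with 1.03 and *Gr2* with -1.20. At the first step this share is near that of all loci. *Or119* listed at most 1.93 FPKM in any library before 55–70 h and 3.01 to 3.81 FPKM at that age. It passed the filter only through its late values, so the count that rose at the second step is partly set by the filter.

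**Figure D5:**
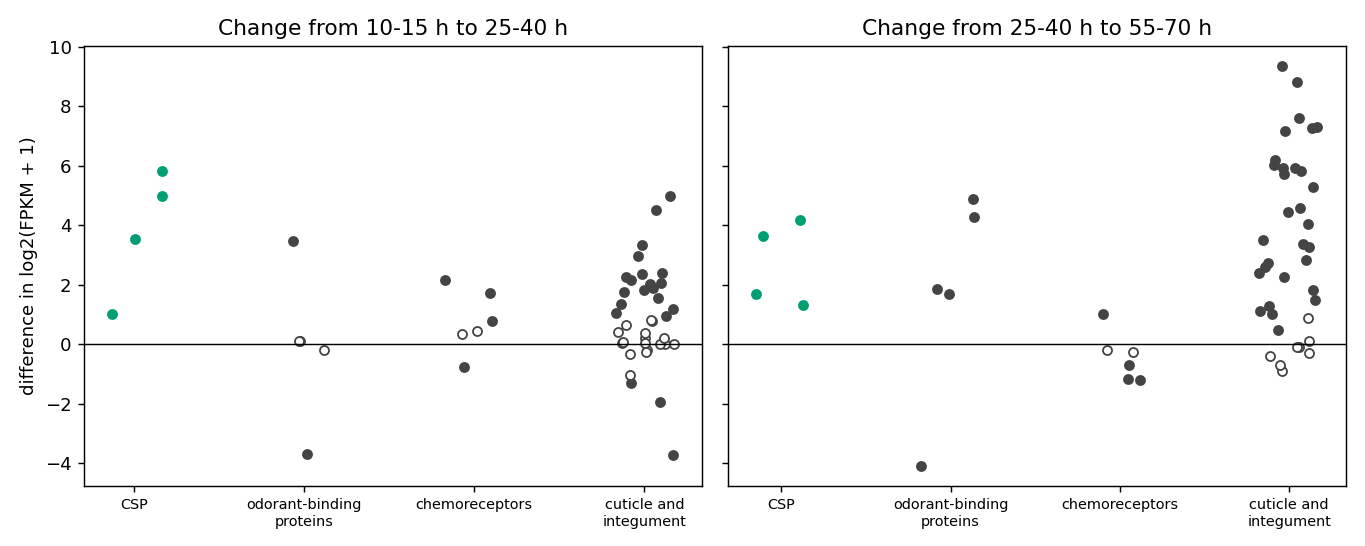
Change of each tested locus in log2(FPKM + 1) between successive ages, averaged over the sexes, for the 4 CSPs (green), 5 odorant-binding proteins, 6 chemoreceptors and 38 cuticle and integument loci. Filled points passed an adjusted p of 0.05. All CSP points are filled and above 0 at both steps, the odorant-binding proteins and chemoreceptors lie on both sides of 0, and 30 cuticle points are filled above 0 at the second step.

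The course of the members over the 12 libraries was compared with each other and with 1890 named loci by Pearson's r of log2(FPKM + 1), as a description only, since the libraries share one series of ages. Between members r ran from 0.800 for CSP4 and CSP6 to 0.961 for CSP2 and CSP3. Most like CSP2 were *Mlc2*, a myosin light chain (r = 0.994), *Fim* (r = 0.990) and *Ptr* (r = 0.990). For CSP3 they were the noncoding RNA *Ancr-1* (r = 0.987), *Nep1*, a neprilysin peptidase (r = 0.981) and *Dl* (r = 0.980). For CSP4 they were *Nep4*, another neprilysin (r = 0.977), *ric8a* (r = 0.975) and *Unc-89*, a giant muscle protein (r = 0.975). CSP6 was most like *Mtch* (r = 0.991), *if*, an integrin subunit (r = 0.989) and *Dg*, dystroglycan (r = 0.987). *Dg* was chosen for its likeness to CSP6 over the same libraries, and its tests between the sexes are not given here. It had means of 201 FPKM in females and 42.1 FPKM in males at 25–40 h against 229 and 232 FPKM at 55–70 h.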

How the data were processed

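The authors deposited FPKM of each locus for 12 libraries, with bounds and a status. TopHat2, Bowtie2 2.2.6 and Cufflinks 2.2.1 are listed in the processing notes of the submitters. The sources used here give no genome build, strand setting or parameters. FPKM hold no reads, so depth is unknown, and growth of abundant transcripts lowers the FPKM of all others.

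Values were analysed as log2(FPKM + 1), so differences of low loci are understated. Loci averaging 1 FPKM or more, with valid status in all 12 libraries (10105 of 17621), were fitted as 6 group means (limma 3.58.1 under R 4.3.3, variance trend). P-values were adjusted over all of them (Benjamini–Hochberg, threshold 0.05). The fit was also run on simulated data that assume its own spread, with changes placed only in higher loci. Such a run does not test the fit at low loci such as CSP4, and its outcome is not given here. Tables and figures used Python 3.11.15, pandas 2.3.3, numpy 2.4.6 and matplotlib 3.10.9.

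Alternatives were pseudocounts of 0.1 and 5, quantile normalization, median-ratio scaling, TPM rescaling, filters of 5 FPKM or none, any status, no variance trend, only the libraries compared, a replicate block, each library left out, and, added later, bound midpoints. The members and lists were chosen with earlier results of these data known. The text names all CSPs, their neighbours, up to 3 called members per list and direction, and the 3 named loci most like each CSP. The sex differences of *Obp9*, *Obp13* and *Obp15* and the levels of *Vg*, *Melt* and *Mrjp1* were singled out after their values were seen.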

Additional observations from a re-analysis of the deposited data

Results flagged for a closer look

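The sex difference of CSP6 changed with age (interaction F = 31.1, limma adjusted p = 0.00485), being negative at 10–15 h (-1.13), 2.82 at 25–40 h and 0.26 at 55–70 h on the log2(FPKM + 1) scale. That of CSP3 changed as well (F = 14.04, limma adjusted p = 0.0237), from -1.22 at 10–15 h and -0.99 at 25–40 h to 1.93 at 55–70 h. Both were picked out because the test of the difference between ages itself passed the threshold.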

How the results depend on the processing

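All 8 age changes of the 4 tested CSPs held with each library left out, and under every other setting but quantile normalization for the first step of CSP4 and the 5 FPKM filter, which drops CSP4. Of the 4 members, the number called for sex at 10–15 h was 2 in place of 0 with a pseudocount of 0.1 and with TPM rescaling (CSP3 and CSP6), and 1 with the midpoint of the bounds (CSP6, limma adjusted p = 0.0492). At 25–40 h it was 0 in place of 1 in the fit of only the libraries compared. At 55–70 h it was 1 in place of 0 with the midpoint (CSP3), and 0 to 1 with libraries left out. Averaged over ages it was 1 in place of 0 with a pseudocount of 5, the 5 FPKM filter, median-ratio scaling, quantile normalization and the midpoint (CSP6 each time), and 0 to 1 with libraries left out (1 without male 25–40 h replicate 2). For the interaction it was 1 to 2 with libraries left out. With median-ratio scaling and quantile normalization the interaction of CSP4 was called besides those of CSP3 and CSP6. The cause of these shifts was not tested.

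Sex differences that changed sign were never called. They were CSP2 at 25–40 h with median-ratio scaling (0.002629) and quantile normalization (0.03308), CSP3 averaged over ages with a pseudocount of 5 (0.18), and CSP4 averaged over ages with a pseudocount of 0.1 (-0.37) and TPM rescaling (-0.070). With libraries left out, CSP2 ran from -0.40 to 0.70 at 10–15 h, from -0.43 to 1.003 at 55–70 h and from -0.11 to 0.37 averaged. CSP3 averaged ran from -0.33 to 0.14, CSP4 from -0.77 to 0.12 at 25–40 h and from -0.047 to 0.25 averaged, and CSP6 from -0.064 to 0.58 at 55–70 h.

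No common pairing by replicate number was seen: of 15 pairs of groups, 3 had a correlation of deviations over 0.1 (range -0.279 to 0.166). Whether some libraries of the same number share mothers or a batch cannot be read from these correlations. With a replicate block no CSP call changed, and CSP6 at 25–40 h stayed called (2.82, limma adjusted p = 0.00162). Groups of 2 libraries limit what can be called, and when a library is left out the lone one is assumed to vary like the others.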
